A study of Mus musculus with 36 samples.

Results

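Primitive endoderm genes were followed in RNA sequencing data from mouse embryonic stem cells (mESCs). The set was a named list of 9 genes, *Gata4*, *Gata6*, *Sox17*, *Sox7*, *Foxa2*, *Dab2*, *Pdgfra*, *Amn* and *Lrp2*, chosen by symbol, with no rule on their values. Earlier results of these data were known when the list was chosen. Its genes were 9 of the 49671 genes in the count table, and 9 of the 17702 genes that passed the filter on low counts.

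The cells were wild-type mESCs of the strain labelled 129m wt, cultured on StemBond hydrogels of 2 stiffnesses (soft and stiff), polyacrylamide gels to which matrix protein is tethered, or on tissue culture plastic. On either hydrogel, RNA was taken at 24 h from serum + LIF, and at 48 h from 4 media, namely serum with neither agent, with LIF, with PD03 or with both. Plastic contributed only serum + LIF at 48 h. There were 6 libraries for soft substrates in serum + PD03 and 3 for each of the other 10 groups, 36 in all. LIF activates STAT3 and helps mESCs to self-renew, PD03 inhibits MEK, the kinase upstream of ERK, and all 11 groups had serum. No group was a primitive endoderm line or an embryo, and no transgene drove these genes, so the data give the level of primitive endoderm genes within mESC cultures.

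The primitive endoderm is the layer that lines the blastocyst cavity and later forms the parietal and visceral endoderm of the yolk sac. It separates from the epiblast when cells of the inner cell mass that receive FGF and activate ERK keep GATA6 and lose NANOG. GATA6 is followed by SOX17, GATA4 and SOX7, while PDGFRA carries a survival signal. Megalin (encoded by *Lrp2*), DAB2, amnionless (encoded by *Amn*) and cubilin serve the uptake of proteins in the visceral endoderm. mESC cultures can hold a few cells with primitive endoderm markers. In RNA from a whole culture, fewer cells of a type and less RNA per cell cannot be told apart.

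Total counts ranged from 10405696 to 26635239 per library, and levels are given as CPM, the count of a gene scaled to the size of its library, with library sizes adjusted by the TMM method. The 8 markers of embryonic stem cells summed to between 2456 and 4848 CPM in a library. The 9 primitive endoderm genes summed to between 234 and 637 CPM, of which *Lrp2* alone made up 181 to 506. The label names genes and was not borne out as a cell type. Per kilobase of exon, *Gata4* stood at the 38.5 percentile of the genes tested, *Gata6* at the 37.9 and *Sox17* at the 9.88. Of the secreted products of visceral endoderm, *Ttr* averaged 0.015 CPM, *Afp* 0.0358 and *Apoa1* 0.134, and none of these 3 passed the filter, nor did *Apoa2* (0.0294) and *Apoa4* (0.00384). Some genes for other secreted products, from a wider list of extraembryonic endoderm, did pass it. Their means were 223 CPM for *Apoe*, 427 for *Sparc*, 2.86 for *Apob*, 0.809 for *Rbp4* and 0.72 for *Apom*. Several of these are also made by other cells.

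Per kilobase of exon, *Lrp2* was the most abundant of the 9, at 16.1 CPM per kb, which is the 82.3 percentile of the genes tested. *Dab2* followed at 7.11 CPM per kb, *Sox7* at 2.16, *Gata4* at 1.22 and *Gata6* at 1.17. *Foxa2* (0.588 CPM per kb), *Pdgfra* (0.474), *Amn* (0.326) and *Sox17* (0.171) were lowest. Counts of *Amn* ran from 2 to 26 per library, with 3 or fewer in 2 libraries, those of *Sox17* from 5 to 25 and those of *Foxa2* from 9 to 49. Counting error alone is then 30.3% of the mean count for *Amn*, 26% for *Sox17* and 20% for *Foxa2*, against 1.41% for *Lrp2*.

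**Figure D1:**
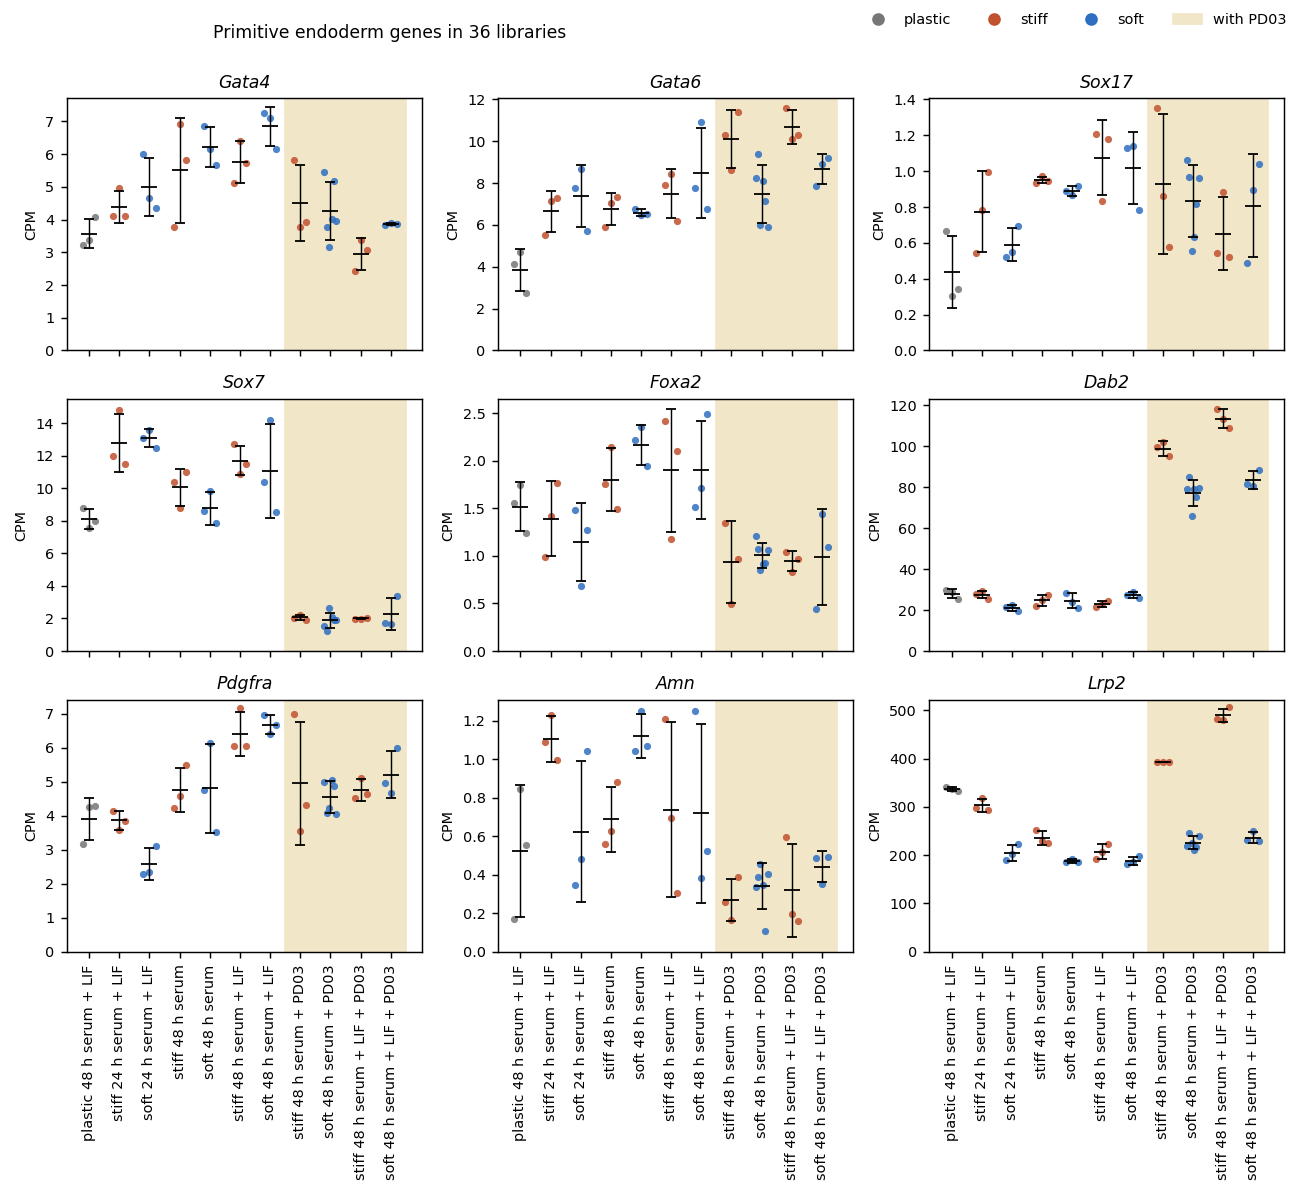
Level of each of the 9 primitive endoderm genes in CPM (vertical axis, from 0) in the 11 groups, with 1 point per library and bars for the mean ± SD (n = 3, or 6 for soft substrates in serum + PD03). Shading marks media with PD03, where *Dab2* lay between 65.7 and 118 CPM against at most 29.6 elsewhere, and *Sox7* between 1.26 and 3.38 CPM against at least 7.56 elsewhere.

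The genes did not move as 1 group. Over the 11 group means of log2 CPM, the 36 pairs of genes had Pearson correlations from -0.97 (*Sox7* with *Dab2*) to 0.81 (*Sox7* with *Amn*), 19 positive and 17 negative. Over the deviations of the 36 libraries from their group means, they ranged from -0.36 to 0.47 with a median of 0.05. These correlations describe points that share media and library preparation.

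The comparisons asked how substrate stiffness, MEK inhibition, LIF, plastic and time bear on these genes. A change is called where the adjusted p of the edgeR quasi-likelihood fit, corrected over all 17702 genes, was under 0.05. With PD03 added, 6 of the 9 genes were called on soft substrates without LIF, where 57.5% of all genes were. There were 5 on soft substrates with LIF (54.4% of all genes), 6 on stiff substrates without LIF (55.8%) and 7 on stiff substrates with LIF (56.2%). These shares are near those of all genes. In the mean of the 4 PD03 comparisons, 8 of 9 were called (74.3% of all genes), 3 higher (37.2%) and 5 lower (37.1%), with a median log2 change of -0.30 over the 9 genes and -0.00 over all genes.

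The 24 h comparison of soft with stiff substrates called 2 genes (3.55% of all genes, 2.52% lower on soft). At 48 h, serum gave 1 call (4.85%, 2.77% lower), PD03 without LIF gave 2 (5.55%, 3.42% lower) and PD03 with LIF gave 2 (7.61%, 4.82% lower). Each of these 7 calls was lower on soft substrates and concerned *Lrp2* or *Dab2*. At 48 h in serum + LIF, edgeR called 0 (0.78% of all genes), with 2 at an unadjusted p under 0.05 and 0 by DESeq2. Against plastic, 4 genes were called on soft substrates (11.8%) and 6 on stiff substrates (5.54%). Between 24 h and 48 h, 2 were called on soft (24.4%) and 3 on stiff substrates (25.6%). LIF gave 1 call in 4 comparisons, for *Lrp2* on stiff substrates with PD03 (0.514% of all genes). In the other 3 LIF comparisons edgeR called 0. These had 3 genes at an unadjusted p under 0.05 and 0 by DESeq2 on soft substrates without PD03 (0.0169% of all genes), 0 and 0 on soft substrates with PD03 (0.107%), and 2 and 1 on stiff substrates without PD03 (1.41%). The mean of the 4 LIF comparisons also called 0 (1.85% of all genes), with 3 at an unadjusted p under 0.05 and 0 by DESeq2. Of the 7 tests of a difference between effects, those of stiffness by LIF called 0 without PD03 (0.0847% of all genes, 1 at an unadjusted p under 0.05, 0 by DESeq2) and 0 with PD03 (0.00565%, 1 and 0). That of LIF by PD03 on soft substrates called 0 as well (0.0226%, 0 and 0). Comparisons with a group in common, such as both comparisons with plastic, share its libraries.

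**Figure D2:**
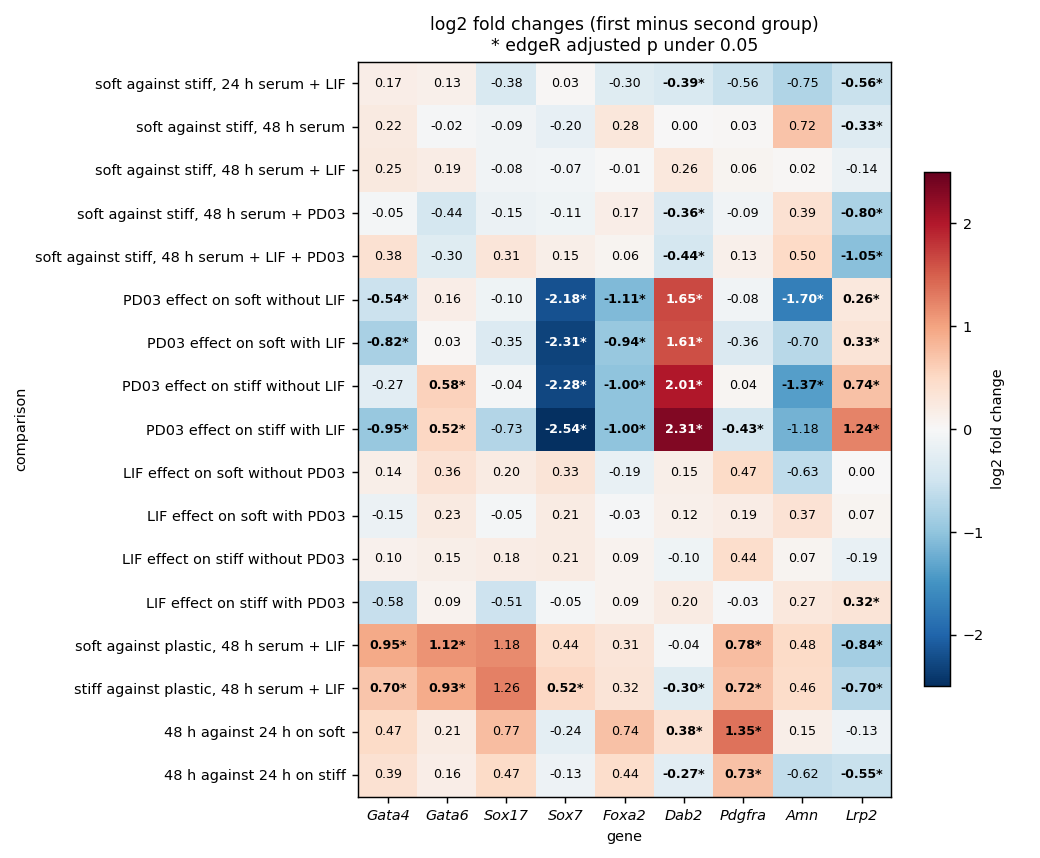
Fitted log2 fold changes (colour and printed value, first group minus second) of the 9 primitive endoderm genes (columns) in 17 comparisons (rows). An asterisk marks an edgeR adjusted p under 0.05. The PD03 rows run from -2.54 for *Sox7* to 2.31 for *Dab2*, and the soft against stiff rows have asterisks for *Dab2* and *Lrp2* only.

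GATA6 and GATA4 are zinc finger transcription factors at the head of the primitive endoderm program. *Gata6* was low on plastic, with 4.12, 4.72 and 2.76 CPM in serum + LIF. On stiff substrates in the same medium it was 7.89, 8.42 and 6.19 CPM, and on soft substrates 7.78, 10.9 and 6.74 CPM. Every hydrogel library thus lay above every plastic library. The log2 change was 0.93 ± 0.19 (SE; adjusted p = 0.000902) on stiff and 1.12 ± 0.19 (adjusted p = 1.97e-05) on soft substrates.

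With PD03, *Gata6* reached 10.3, 8.63 and 11.4 CPM on stiff substrates without LIF, against 5.91, 7.07 and 7.31 in serum alone. With LIF the stiff libraries held 11.6, 10.1 and 10.3 CPM. Both sets lay above their controls without overlap, at log2 changes of 0.58 ± 0.17 (adjusted p = 0.00301) without LIF and 0.52 ± 0.17 (adjusted p = 0.00658) with LIF. Leaving out the third stiff library in serum + LIF brought the latter to 0.40 (adjusted p = 0.0716). On soft substrates *Gata6* was 6.76, 6.48 and 6.53 CPM in serum, and ranged from 5.88 to 9.39 with a median of 7.63 in serum + PD03, so the groups overlapped. The log2 changes there were 0.16 without LIF and 0.03 with LIF, and did not pass the test. In serum + PD03, *Gata6* was 0.44 lower on soft than on stiff substrates on the log2 scale (adjusted p = 0.0577), and DESeq2 called this difference. With a term for the sequencing pool it was called in 3 of 45 fits, at log2 differences from -0.76 to -0.20. The soft and stiff libraries lay mostly in different pools. The difference between substrates in the response to PD03 was -0.42 ± 0.23 (95% interval -0.88 to 0.03, adjusted p = 0.486) without LIF and -0.49 ± 0.24 (-0.97 to -0.02, adjusted p = 0.491) with LIF, so a difference was not shown. *Gata6* shares its locus with an overlapping gene that had 77 counts over all libraries, against 4983 for *Gata6*. The strand setting of the counting is not given in the sources used here.

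*Gata4* (chr14:63198922-63271692 of GRCm38, minus strand) went down with PD03. In serum + LIF on stiff substrates it was 5.12, 6.4 and 5.73 CPM, and with PD03 added 2.43, 3.39 and 3.06. On soft substrates the values were 7.27, 7.11 and 6.15 CPM in serum + LIF and 3.84, 3.89 and 3.87 with PD03. In both pairs the groups were apart, and *Gata4* fell by 0.95 ± 0.20 on the log2 scale on stiff (adjusted p = 5.26e-05) and by 0.82 ± 0.19 on soft substrates (adjusted p = 0.000248).

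Without LIF, *Gata4* on soft substrates was 6.86, 6.15 and 5.66 CPM in serum and 3.17 to 5.46 (median 3.99) in serum + PD03, a fall by 0.54 ± 0.16 (adjusted p = 0.00354). On stiff substrates without LIF, serum gave 3.77, 6.93 and 5.82 CPM and serum + PD03 gave 5.83, 3.76 and 3.92, which overlapped, and the log2 change of -0.27 was not called (adjusted p = 0.25). It was called without the first stiff serum library, at -0.53 (adjusted p = 0.0249). *Gata4* on plastic was 3.23, 3.39 and 4.07 CPM, below every hydrogel library in the same medium. It was higher than plastic by a log2 change of 0.95 ± 0.20 on soft (adjusted p = 0.000521) and 0.70 ± 0.20 on stiff substrates (adjusted p = 0.028), and the latter call was lost without any 1 of 4 of the 6 libraries compared (plastic 1 or 2, stiff 2 or 3, adjusted p from 0.0736 to 0.138).

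*Sox7* (chr14:63943673-63950732, plus strand), which encodes an SRY-box factor that is also used in endothelium, had the largest decrease of the 9. On stiff substrates it was 10.4, 8.81 and 11 CPM in serum and 2.05, 2.21 and 1.93 in serum + PD03. In serum + LIF it was 12.7, 10.9 and 11.5 CPM, and with PD03 1.99, 1.97 and 2.05. No library with PD03 came near one without it.

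On soft substrates *Sox7* was 8.63, 9.85 and 7.85 CPM in serum and 1.26 to 2.62 (median 1.92) in serum + PD03, and in serum + LIF it went from 10.4, 14.2 and 8.57 CPM to 1.75, 1.64 and 3.38 with PD03. The counts with PD03 were 13 to 62 per library. The log2 changes of *Sox7* were -2.28 ± 0.19 (stiff, adjusted p = 1.42e-14) and -2.18 ± 0.16 (soft, adjusted p = 8.51e-17) without LIF. With LIF they were -2.54 ± 0.19 (stiff, adjusted p = 1.17e-16) and -2.31 ± 0.19 (soft, adjusted p = 4.44e-15). Soft and stiff substrates did not differ by the test for *Sox7* in any of the 5 media and times, and the difference in the PD03 response was 0.09 (95% interval -0.44 to 0.63) without LIF and 0.23 (-0.33 to 0.79) with LIF. Against plastic (8.8, 7.56 and 8.01 CPM) *Sox7* was higher on stiff substrates by 0.52 ± 0.16 (adjusted p = 0.0464). That call lay at the threshold: it was lost without any 1 of the 6 libraries compared, with adjusted p up to 0.195, without many libraries of other groups, and in all 45 fits with a term for the sequencing pool.

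*Sox17* (chr1:4490931-4497354, minus strand), an SRY-box factor needed for the epithelium of the primitive endoderm, gave no call in any comparison. Its counts were 5 to 25 per library, and the 95% intervals of its log2 change with PD03 ran from -1.49 to 0.71 over the 4 comparisons. It was 0.668, 0.303 and 0.345 CPM on plastic, 1.21, 0.835 and 1.18 on stiff and 1.13, 1.14 and 0.785 on soft substrates in serum + LIF. The hydrogel libraries lay above those on plastic without passing the test, at log2 changes of 1.18 (95% interval 0.33 to 2.03, adjusted p = 0.058) on soft and 1.26 (0.42 to 2.10, adjusted p = 0.0656) on stiff substrates. Without the first plastic library both passed, at 1.65 (adjusted p = 0.0295) and 1.72 (adjusted p = 0.0394). An overlapping gene at *Sox17* held 18 counts over all libraries, against 533 for *Sox17*.

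*Foxa2* (chr2:148042877-148046969, minus strand) encodes a forkhead factor used in visceral and definitive endoderm. In serum on soft substrates it was 2.22, 2.35 and 1.94 CPM, and in serum + PD03 0.856 to 1.21 with a median of 0.996. On stiff substrates it was 1.76, 2.15 and 1.49 CPM in serum and 1.35, 0.491 and 0.963 with PD03. The groups did not overlap, and *Foxa2* fell by 1.11 ± 0.28 on the log2 scale on soft (adjusted p = 0.000577) and by 1.0 ± 0.35 on stiff substrates (adjusted p = 0.0125).

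With LIF, *Foxa2* was 1.51, 1.71 and 2.49 CPM on soft substrates and 0.437, 1.44 and 1.09 with PD03 added. On stiff substrates it was 2.42, 1.18 and 2.1 CPM and became 1.04, 0.836 and 0.965. Each library with PD03 lay below each of its controls. *Foxa2* fell by 0.94 ± 0.34 on soft (adjusted p = 0.017) and by 1.0 ± 0.34 on stiff substrates (adjusted p = 0.00963). Single libraries carried the 3 weaker calls. Leaving out the first soft library in serum + LIF + PD03, which had 9 counts, gave -0.58 (adjusted p = 0.174), and leaving out the third soft library in serum + LIF gave -0.72 (adjusted p = 0.119). Without the second stiff library in serum + PD03 the change was -0.62 (adjusted p = 0.168), without the second in serum -0.86 (adjusted p = 0.0544), and without the first in serum + LIF -0.81 (adjusted p = 0.0699). Stiffness, LIF, plastic and time gave no call for *Foxa2*.

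*Pdgfra* (chr5:75152292-75198215, plus strand) encodes the PDGF receptor that marks the primitive endoderm at the blastocyst stage. It rose between 24 h and 48 h in serum + LIF. On soft substrates it was 2.27, 2.33 and 3.12 CPM at 24 h and 6.96, 6.41 and 6.67 at 48 h, a log2 change of 1.35 ± 0.21 (adjusted p = 1.58e-06). On stiff substrates it was 4.15, 3.58 and 3.85 CPM at 24 h and 6.04, 7.16 and 6.04 at 48 h, a log2 change of 0.73 ± 0.19 (adjusted p = 0.00228). In both pairs each 48 h library was above each 24 h library.

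Against plastic (3.18, 4.24 and 4.28 CPM), *Pdgfra* was higher on soft substrates by a log2 change of 0.78 ± 0.19 (adjusted p = 0.0032) and on stiff substrates by 0.72 ± 0.19 (adjusted p = 0.0136). Without the second stiff library the latter had an adjusted p of 0.0904, and without the first plastic library 0.128. Of the 4 single PD03 comparisons, the one call was on stiff substrates with LIF, where 6.04, 7.16 and 6.04 CPM became 4.52, 5.11 and 4.63 (a fall by 0.43 ± 0.18 on the log2 scale, adjusted p = 0.04). That call was lost without any 1 of 5 of the 6 libraries compared, with adjusted p up to 0.172. The mean of the 4 comparisons was also called for *Pdgfra* (-0.21, adjusted p = 0.0343). Leaving out 1 library ended that call for 7 of the 36 (the second in stiff serum + LIF, stiff libraries 2 and 3 in serum + PD03 and 3 in serum, soft libraries 1 and 2 in serum + LIF + PD03 and 2 in serum, adjusted p up to 0.149), and held in 26 of 45 fits with a pool term.

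Sequencing pool moved with several of these comparisons. The labels place all 24 h and plastic libraries in pool 1, the stiff 48 h libraries in pool 2 except for 1 of 3 in serum + LIF (pool 1), and the soft 48 h libraries in pool 3 except for 2 of 6 in serum + PD03 (pool 2). Columns of the count table do not show which libraries those were, so a pool term was fitted under each of the 45 assignments the labels allow. The calls against plastic held in 45 of 45 assignments for *Lrp2* on both substrates. For *Gata6* they held in 30 on stiff and 11 on soft substrates, for *Gata4* in 0 on stiff and 1 on soft substrates, and for *Pdgfra* in 0 on both. The rise of *Pdgfra* with time was called in 15 assignments on stiff and 21 on soft substrates. For *Lrp2* the change against plastic with a pool term ran from -1.13 to -0.52 on soft and from -0.81 to -0.59 on stiff substrates. In these comparisons the pool term rests on the groups that the labels split between pools, whose libraries are not identified. Holding in every fit therefore does not separate pool from condition for *Lrp2*. For the other genes, pool and condition cannot be told apart either. The PD03 comparisons lay mostly within a pool. Their calls for *Sox7*, *Dab2*, *Lrp2*, *Gata4* and *Amn* held in all 45, as did those for *Foxa2* and *Gata6* except on stiff substrates with LIF, where both held in 30 and that for *Pdgfra* in 8.

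*Dab2* encodes a clathrin adaptor that joins megalin to endocytosis and is needed for the placement of the primitive endoderm layer. The annotated gene is chr15:6299788-6440712 (plus strand). A RefSeq promoter of 250 bases at its 5′ end held a GATA motif, and which start the cells used was not tested. The second *Dab2* promoter in RefSeq (chr15:6386498-6386747) held none. Only the first of these promoters is printed, because *Dab2* was the member with the largest increase and the motif is that of the GATA factors among the members. The stretch is chr15:6299539-6299788 of GRCm38.p6 from RefSeq, 5′ to 3′ on the plus strand, with the motif in capitals.
Dab2 promoter: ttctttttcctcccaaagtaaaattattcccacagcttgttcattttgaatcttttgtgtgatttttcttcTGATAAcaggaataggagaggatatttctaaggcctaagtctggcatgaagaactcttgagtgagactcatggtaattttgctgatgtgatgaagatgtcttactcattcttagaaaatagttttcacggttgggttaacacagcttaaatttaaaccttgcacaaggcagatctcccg

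The motif was searched on both strands as AGATAA or AGATAG, or with T as first letter as TGATAA or TGATAG, and 26.5% of 32851 RefSeq promoters of this length held at least 1. In the printed *Dab2* promoter the match begins 179 bases before the RefSeq start. Promoters were found for 5 of the 9 genes (*Dab2*, *Lrp2*, *Foxa2*, *Pdgfra* and *Amn*), 8 in all with alternative starts, and 2 of the 8 held the motif, 1 of *Dab2* and 1 of *Foxa2*. An ETS motif (CCGGAAG, both strands), a site class bound by ERK-regulated factors, stood in 6.91% of all promoters and in none of these 8. Such matches describe letters only.

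*Dab2* rose with PD03 on both substrates. On stiff substrates it was 22, 25 and 27.3 CPM in serum and 99.4, 102 and 94.9 in serum + PD03, and in serum + LIF it went from 21.3, 22.8 and 24.2 to 118, 113 and 109 CPM. On soft substrates it was 28.5, 24 and 21.2 CPM in serum and 65.7 to 85 (median 79) in serum + PD03, and in serum + LIF it went from 27.3, 28.6 and 26 to 81.4, 80.6 and 88.4 CPM. The lowest library with PD03 (65.7 CPM) was far above the highest without it (29.6 CPM). The log2 changes on stiff substrates were 2.01 ± 0.08 without LIF (adjusted p = 7.16e-27) and 2.31 ± 0.08 with LIF (adjusted p = 3.27e-29). On soft substrates they were 1.65 ± 0.07 (adjusted p = 2.61e-25) and 1.61 ± 0.08 (adjusted p = 6.92e-23).

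Substrates differed in the size of this increase. With LIF, soft substrates gave a smaller *Dab2* response (log2 interaction -0.70 ± 0.12, adjusted p = 0.00014), in a test called for 1.07% of all genes. Without LIF the difference was -0.36 ± 0.11 (adjusted p = 0.107), and passed the test only when the third soft serum library was left out (-0.46, adjusted p = 0.0358). In the presence of PD03, *Dab2* was lower on soft than on stiff substrates by 0.36 ± 0.06 without LIF (adjusted p = 6.65e-05) and by 0.44 ± 0.07 with LIF (adjusted p = 1.23e-05). These calls held in 36 and 33 of the 45 pool assignments. The soft and stiff libraries lay mostly in different pools, so pool and substrate cannot be told apart there. In serum the log2 difference was 0.00 (95% interval -0.18 to 0.18). In serum + LIF at 48 h the direction was the other way. The soft libraries (27.3, 28.6 and 26 CPM) lay above the stiff ones (21.3, 22.8 and 24.2 CPM), at a log2 difference of 0.26 (95% interval 0.07 to 0.45) that was not called (adjusted p = 0.219).

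The 24 h libraries were all in 1 pool. There *Dab2* was 27.6, 29.3 and 25.6 CPM on stiff and 21.3, 22.3 and 19.5 on soft substrates. The groups were apart, with a decrease on soft of 0.39 ± 0.09 (adjusted p = 0.00584), which lost the threshold without stiff library 2 (adjusted p = 0.0567) or soft library 3 (adjusted p = 0.0787). By 48 h it had risen on soft substrates by 0.38 ± 0.10 (adjusted p = 0.00191) and fallen on stiff substrates by 0.27 ± 0.09 (adjusted p = 0.0215), and the interaction of stiffness with time was 0.65 ± 0.13 (adjusted p = 0.00967, 0.254% of all genes). The decrease on stiff substrates was lost without any 1 of 4 libraries (the first or second of either group, adjusted p up to 0.112). The interaction was lost without the third soft library at 24 h (adjusted p = 0.0585) or the second at 48 h (adjusted p = 0.0605). With a pool term the rise was called in 3, the decrease in 1 and the interaction in 8 of the 45 assignments. *Dab2* was lower on stiff substrates than on plastic by 0.30 ± 0.09 (adjusted p = 0.0378), a call lost without either of the first 2 libraries of each group (highest adjusted p = 0.196) and in all 45 pool assignments.

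*Lrp2* (chr2:69424340-69586065, minus strand), which encodes the large endocytic receptor megalin, had the most counts, from 2178 to 12571 per library. Among the called differences between soft and stiff substrates, those of *Lrp2* were the largest in each medium and time. At 24 h it was 298, 319 and 294 CPM on stiff and 190, 203 and 223 on soft substrates. At 48 h in serum it was 252, 230 and 225 CPM on stiff and 186, 192 and 186 on soft substrates. Stiff libraries lay above soft ones in both media.

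With PD03 the gap in *Lrp2* was wider. In serum + PD03 the stiff libraries held 392, 394 and 393 CPM and the soft libraries 210 to 245 (median 222). In serum + LIF + PD03 they held 482, 481 and 506 CPM on stiff and 231, 249 and 229 on soft substrates. In serum + LIF at 48 h, 192, 206 and 223 CPM on stiff overlapped with 181, 186 and 198 on soft substrates.

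On the log2 scale *Lrp2* was lower on soft substrates by 0.56 ± 0.06 at 24 h (adjusted p = 3.47e-10), by 0.33 ± 0.06 in serum (adjusted p = 6.59e-05), by 0.80 ± 0.05 in serum + PD03 (adjusted p = 6.94e-18) and by 1.05 ± 0.06 in serum + LIF + PD03 (adjusted p = 6.32e-20). In serum + LIF at 48 h the difference was -0.14 (95% interval -0.25 to -0.02, adjusted p = 0.333). The calls at 24 h and with PD03 held in all 45 pool assignments, and that in serum in 27. All 24 h libraries were in 1 pool. At 48 h soft and stiff libraries lay mostly in different pools, and the split libraries are not identified. Holding in every fit therefore does not separate pool from substrate for *Lrp2* at 48 h.

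PD03 raised *Lrp2* in each of the 4 comparisons. The log2 changes were 0.74 ± 0.06 on stiff substrates without LIF (adjusted p = 2.76e-16), 1.24 ± 0.06 with LIF (adjusted p = 7.29e-25), 0.26 ± 0.05 on soft substrates without LIF (adjusted p = 9.4e-06) and 0.33 ± 0.06 with LIF (adjusted p = 2.41e-06). The increase was smaller on soft substrates by 0.47 ± 0.07 without LIF (adjusted p = 9.52e-05, in a test called for 0.797% of all genes) and by 0.91 ± 0.08 with LIF (adjusted p = 4.82e-11). Both interactions held in all 45 pool assignments.

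LIF bore on *Lrp2* on stiff substrates. With PD03 present, adding LIF raised it by 0.32 ± 0.06 (adjusted p = 0.00104), from 392 to 394 CPM in the libraries without LIF to 481 to 506 with it. Without PD03 the log2 change was -0.19 ± 0.06 (adjusted p = 0.0892), which passed the threshold in 5 of the 36 fits that left out 1 library. The interaction of LIF and PD03 on stiff substrates was 0.50 ± 0.08 (adjusted p = 8.53e-05, 1.09% of all genes). On soft substrates the LIF effects on *Lrp2* were 0.00 (95% interval -0.11 to 0.12) without and 0.07 (-0.03 to 0.16) with PD03.

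On plastic, *Lrp2* was 342, 337 and 332 CPM, above all hydrogel libraries in serum + LIF at 48 h. It was lower by 0.84 ± 0.06 on soft (adjusted p = 1.88e-16) and by 0.70 ± 0.06 on stiff substrates (adjusted p = 2.73e-13). Between 24 h and 48 h it fell on stiff substrates by 0.55 ± 0.06 (adjusted p = 8.51e-11), and on soft substrates the change was -0.13 ± 0.06 (adjusted p = 0.0998). The interaction of stiffness and time was 0.42 ± 0.08 (adjusted p = 0.00673), called in 13 pool assignments.

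**Figure D3:**
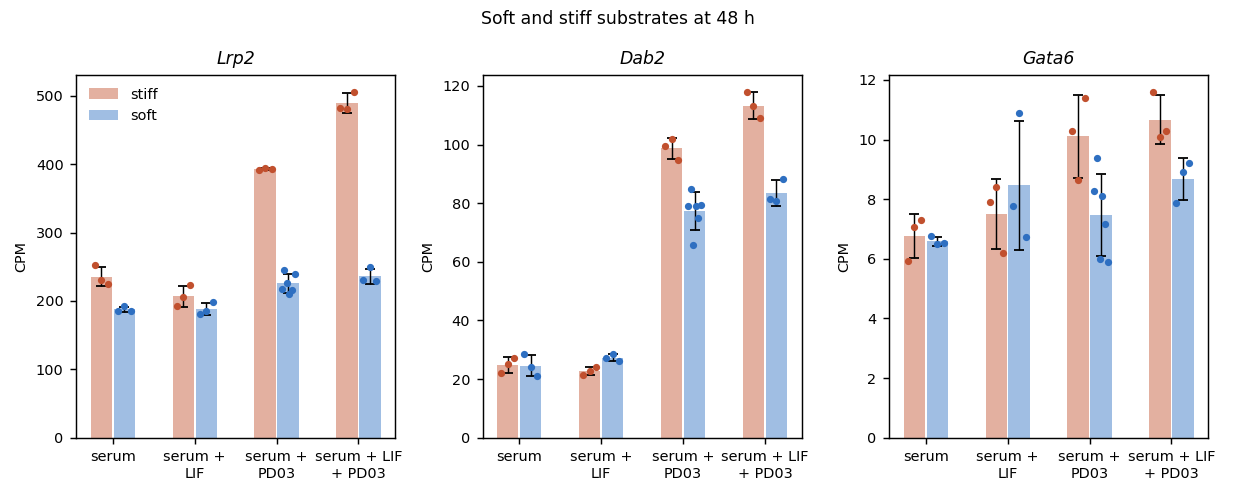
CPM (vertical axis, from 0) of *Lrp2*, *Dab2* and *Gata6* at 48 h on stiff and soft substrates in the 4 media. Bars are means, error bars SD and points libraries (n = 3, or 6 for soft substrates in serum + PD03). In serum + LIF + PD03 *Lrp2* averaged 490 CPM on stiff and 236 on soft substrates, and in serum + LIF 207 and 188.

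*Amn* (chr12:111271095-111276426, plus strand) encodes amnionless, the membrane anchor of cubilin. It was at the edge of detection. On soft substrates it had 1.04, 1.25 and 1.07 CPM in serum (21, 26 and 21 counts) and 0.109 to 0.453 with a median of 0.366 in serum + PD03 (2 to 9 counts). It fell there by 1.70 ± 0.43 on the log2 scale (adjusted p = 0.000618). On stiff substrates without LIF, 0.561, 0.624 and 0.88 CPM became 0.256, 0.164 and 0.385, a fall by 1.37 ± 0.58 (adjusted p = 0.0421). Leaving out 1 of the libraries compared ended the call for 4 of the 6 (stiff serum 2 or 3, stiff serum + PD03 1 or 2), with adjusted p up to 0.193, and without the filter on low counts (adjusted p = 0.0649). With LIF the changes of *Amn* were -0.70 on soft and -1.18 on stiff substrates, and neither passed the test (adjusted p = 0.0668 for the latter). The stiff change passed without stiff library 1 in serum + LIF + PD03 (-1.95, adjusted p = 0.0118) or stiff library 3 in serum + LIF (-1.58, adjusted p = 0.0199), and in 15 of 45 fits with a pool term.

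Genes for 10 partners of these proteins were read alongside. Megalin, amnionless and cubilin work together, and *Cubn*, which encodes cubilin, differed from plastic in the opposite direction to *Lrp2*. In serum + LIF its mean rose from 10.8 CPM for plastic to 21.5 for stiff and 35.1 for soft hydrogels, with log2 changes against plastic of 1.0 ± 0.16 on stiff (adjusted p = 1.26e-05) and 1.70 ± 0.15 on soft substrates (adjusted p = 2.65e-12). *Cubn* was higher on soft than on stiff substrates in the 4 media at 48 h, by 0.56 ± 0.14 in serum (adjusted p = 0.00886) to 1.01 ± 0.16 in serum + LIF + PD03 (adjusted p = 1.37e-05), but not at 24 h (0.11, 95% interval -0.17 to 0.40). The plastic, stiff and soft libraries at 48 h lay mostly in different sequencing pools. For *Cubn*, pool and substrate therefore cannot be told apart at 48 h. Fits with a pool term were read for the members only. With PD03 *Cubn* fell in each comparison, by 1.40 ± 0.07 on average (adjusted p = 8.54e-23). *Lrpap1*, which encodes the chaperone that keeps megalin free of ligand during its synthesis, rose with PD03 from a mean of 104 to 383 CPM on stiff substrates with LIF (log2 change 1.88 ± 0.05, adjusted p = 5.14e-33), and between soft and stiff substrates it gave no call.

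Of the PDGF ligands, *Pdgfa* averaged 76.5 CPM and rose with PD03 by 0.59 ± 0.03 on average (adjusted p = 3.14e-24). *Pdgfc* (39.1 CPM) fell by 0.09 ± 0.04 (adjusted p = 0.0327), *Pdgfd* (0.518 CPM) fell by 1.57 ± 0.28 (adjusted p = 1.95e-06), and *Pdgfb* changed by 0.16 ± 0.10 (adjusted p = 0.148). *Pdgfrb*, the other PDGF receptor, rose by 1.10 ± 0.08 (adjusted p = 5.7e-18). FOG proteins bind GATA factors, and their genes moved in opposite directions, *Zfpm1* rising by 2.05 ± 0.04 (adjusted p = 1.08e-39) and *Zfpm2* falling by 1.70 ± 0.20 (adjusted p = 5.9e-11). *Nanog*, whose product opposes GATA6 in the inner cell mass, rose from a mean of 222 to 795 CPM with PD03 on stiff substrates with LIF (1.84 ± 0.06, adjusted p = 1.8e-31). *Nanog* and *Gata6* were thus both higher with PD03 on stiff substrates. Over the 10 partners, 5 rose and 4 fell in the mean of the PD03 comparisons, against 74.3% of all genes called.

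A wider list of 42 genes of extraembryonic endoderm was also read, of which 35 passed the filter. In the mean of the PD03 comparisons, 21 rose and 6 fell (77.1% called, against 74.3% of all genes), with a median log2 change of 0.56 against -0.00 over all genes. The basement membrane genes *Col4a2* (2.61 ± 0.03, adjusted p = 1.21e-50), *Col4a1* (2.56 ± 0.03, adjusted p = 4.45e-52) and *Nid1* (2.41 ± 0.02, adjusted p = 6.92e-54) rose most, with the keratin gene *Krt18* (2.21 ± 0.04, adjusted p = 3.5e-45) and the protease gene *Tmprss2* (2.18 ± 0.16, adjusted p = 6e-17). *Spink1*, a protease inhibitor gene, fell by 3.46 ± 0.11 (adjusted p = 6.76e-33), and the lipoprotein genes *Apob* and *Apoe* fell by 0.99 ± 0.12 (adjusted p = 2.61e-10) and 0.90 ± 0.03 (adjusted p = 7.27e-33). Between soft and stiff substrates over the 4 media at 48 h, 6 of the 35 were higher and 8 lower on soft (16.4% of all genes called). Over those 4 media *Lrp2* and *Dab2* were the members called, both lower on soft. The *Lrp2* call (-0.58) held in all 45 fits with a pool term, and the *Dab2* call (-0.14, adjusted p = 0.0132) in 4, with log2 differences from -0.32 to -0.00. Keratin genes were among the lower ones of the wider list, with *Krt18* at -0.72 ± 0.03 (adjusted p = 3.76e-22) and *Krt8* at -0.67 ± 0.04 (adjusted p = 1.62e-19). For *Lrp2*, *Dab2* and the genes of the wider list, pool and substrate cannot be told apart in this 48 h comparison.

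**Figure D4:**
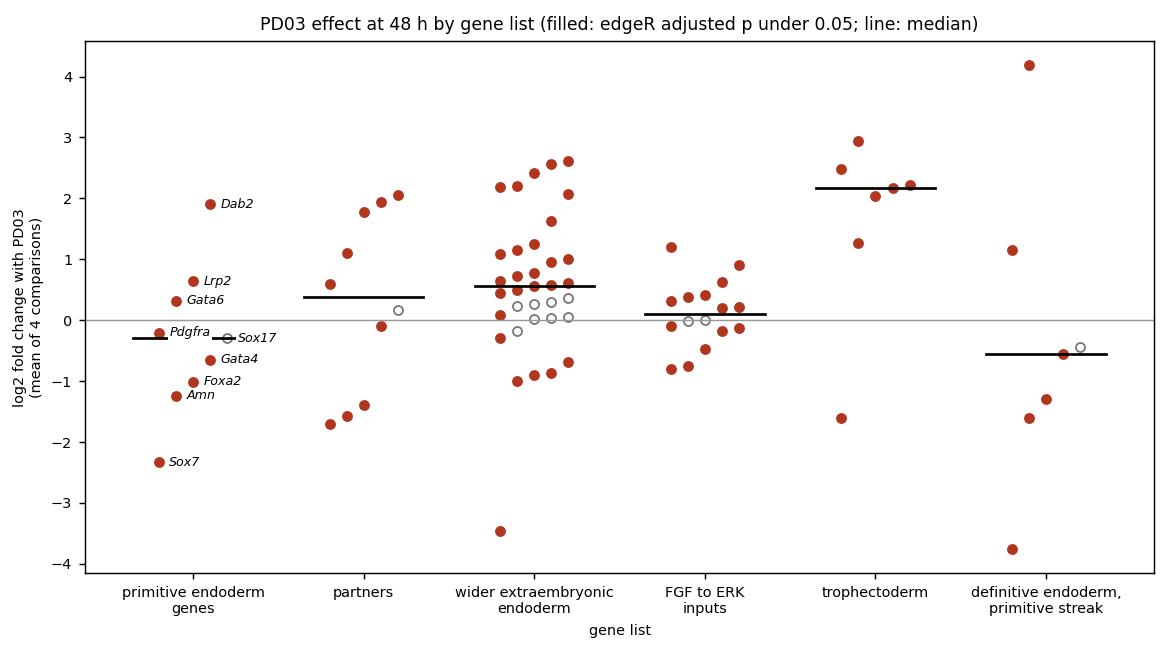
Log2 fold change with PD03 (vertical axis, mean of 4 comparisons at 48 h) of the genes in 6 lists (horizontal axis), with 1 point per gene, filled where the edgeR adjusted p was under 0.05, and a line at the median. The primitive endoderm genes are spread from -2.33 to 1.90, and 6 of the 7 trophectoderm genes lie above 0.

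Many genes of the wider list are used by other cell types, and markers of these moved with PD03 too. Of 7 trophectoderm markers, 6 rose and 1 fell in the mean of the PD03 comparisons (median 2.17), in which 74.3% of all genes were called, as for the other marker counts here. Their summed level was 30.7 to 52 CPM in the 4 groups without PD03 at 48 h on hydrogels and 144 to 256 CPM in the 4 with it. With PD03 the trophectoderm sum was 199 to 256 CPM on stiff and 144 to 173 on soft substrates. Of 8 fibroblast markers, 6 were tested, 4 rose and 2 fell, and *Twist2* and *Lum*, at means of 0.156 and 0.0347 CPM, were not tested. The fibroblast sum was also lower on soft than on stiff substrates. In serum + PD03 it was 72.4 to 81.2 CPM on stiff and 34.3 to 45.6 on soft substrates. At 24 h it was 47.5 to 53.6 on stiff and 21 to 30.9 on soft substrates, and on plastic 66.3 to 78.2. In serum + LIF at 48 h it was 25.8 to 32.7 on stiff and 16.3 to 22.1 on soft substrates. The groups were apart there, whereas those of *Lrp2* overlapped. Most of that sum was *Col1a1*, with a mean of 35.1 CPM against 45.9 for the sum, so it is not a measure of fibroblasts as a cell type. Of 8 embryonic stem cell markers, 7 rose with PD03. On stiff substrates with LIF, definitive endoderm and primitive streak markers summed to 14.5 to 16.5 CPM without PD03 and 8.11 to 9.45 with it. Blood and endothelium markers summed to 54.8 to 63.2 CPM without PD03 and 121 to 127 with it. Most of the latter sum was *Pecam1*, with a mean of 72.9 CPM against 92 for the sum over all libraries. The part of these cell types in the changes of *Dab2* and *Lrp2* was not tested.

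Of 16 genes that carry the FGF signal to ERK, 8 rose and 6 fell in the mean of the PD03 comparisons (87.5% called, against 74.3% of all genes), with a median of 0.11. The ligand gene *Fgf4* rose by 1.20 ± 0.03 (adjusted p = 1.84e-37) and the receptor gene *Fgfr1* by 0.90 ± 0.02 (adjusted p = 2.59e-37). *Map2k1*, which encodes the MEK1 kinase that PD03 inhibits, rose by 0.62 ± 0.04 (adjusted p = 4.55e-20), and *Mapk3*, which encodes ERK1, fell by 0.47 ± 0.03 (adjusted p = 3.92e-21). Over the 4 media at 48 h, 2 of the 16 were higher and 4 lower on soft substrates (37.5% called, against 16.4% of all genes). Soft and stiff libraries at 48 h lay mostly in different pools, so pool and substrate cannot be told apart there. No fit with a pool term was read for these genes.

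Genes whose group means followed a member most closely were ranked by Pearson correlation of log2 CPM over the 11 groups. For *Dab2* they were *3830417A13Rik* (0.997), *Sec62* (0.996) and *Pacsin2* (0.994). For *Sox7* they were *Ndor1* and *Ckap4* (both 0.996) and *Flt4* (0.995), and for *Foxa2* *Chsy1* (0.986), *Morf4l2* (0.982) and *Mrps25* (0.980). *Lrp2* was matched by *Peg3* (0.984), *Tgfa* (0.981) and *Tpm2* (0.980), *Gata4* by *Cstf1* (0.951), *Gmpr* (0.930) and *Slc25a1* (0.920), *Gata6* by *Lgals9* (0.942), *Mcat* (0.926) and *Gabarapl1* (0.917), and *Pdgfra* by *Psat1* (0.878), *1810049J17Rik* (0.877) and *Zfp773* (0.874). To the mean of the members of at least 1 CPM, *Dcaf11* was closest (0.950). Of these, *Pacsin2* also stood among the 3 closest to *Dab2* in the deviations of the 36 libraries from their group means (0.692). The 4 groups with PD03 lay apart from the other 7 for *Dab2* and *Sox7*, and the 11 means share media and pools.

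Ordering the 11 groups by mean level, neighbouring groups were apart without overlap in 4 of 10 steps for *Lrp2*, 3 for *Dab2*, 2 for *Pdgfra*, 1 for *Sox7* and *Gata6*, and 0 for the others. *Lrp2* ran from 490 CPM (stiff, serum + LIF + PD03) through 393 (stiff, serum + PD03), 337 (plastic) and 303 (stiff, 24 h) to 236 (soft, serum + LIF + PD03), and the remaining 6 groups, down to 188, overlapped with their neighbours. For *Dab2* the 4 groups with PD03, from 114 to 77.2 CPM, came first, and the other 7, from 28.1 to 21 CPM, overlapped with their neighbours. For *Gata6* the one clear step was the last, from 6.59 CPM (soft, serum) to 3.87 on plastic.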

How the data were processed

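Whole-culture RNA of 36 mESC libraries was sequenced. The deposited values were whole-number read counts per Ensembl gene. Per the labels, libraries were made with a NuGen kit, reads were mapped by the authors to GRCm38 with STAR 2.5.2a and counted with HTSeq. The strand setting and the treatment of reads with several matches are not given in the sources used here. Symbols, coordinates and exon lengths came from GENCODE M21 (49326 of 49671 IDs matched).

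Tests used edgeR 4.0.16 under R 4.3.3. The filterByExpr function kept 17702 genes (99.92% of counts), which were scaled by TMM and fitted with 1 coefficient per group over all 36 libraries. The quasi-likelihood test was two-sided, with Benjamini-Hochberg adjustment over 17702 genes and a threshold of 0.05. Standard errors were derived from the test statistic. Log2 CPM used a prior count of 2, and CPM per library was computed from the counts. DESeq2 1.42.0 was an alternative, besides other size factors and filters, fits of only the groups compared, each library left out in turn, and a pool term under 45 assignments. The code was tested on simulated data. Total counts of 10405696 to 26635239 per library set the precision of low genes, and counting errors cover counting only.

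Groups followed the labels. Columns carry group names without replicate numbers, so library numbers are names only. Nothing says that libraries came from separate cultures, so p-values measure the spread between these samples, which may be technical. In 45 pairs within groups, counts differed by more than sampling noise (chi-square per gene of 2.22 to 13.4, over genes of at least 50 counts), so each library was counted once. All 9 members were named. All partners could be named, and up to 5 called genes per direction of the other lists with a mean of at least 1 CPM, by size of change. The 3 genes most like each member of at least 1 CPM, and most like their mean, were also named. Members and lists were chosen with earlier results of these data known. Promoters came from RefSeq (GRCm38.p6).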

Additional observations from a re-analysis of the deposited data

Results flagged for a closer look

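One library stood apart within its group. *Amn* was 0.109 CPM (2 counts) in the fifth soft library in serum + PD03, and its gap to the nearest library was 0.666 of the range of the group. The 9 members were each tested in this group of 6 libraries, and chance marks about 1 in 20 such groups.

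The other 6 marked results are differences between effects that passed the edgeR interaction test. For *Lrp2* the PD03 response was smaller on soft than on stiff substrates without LIF (-0.47, adjusted p = 9.52e-05) and with LIF (-0.91, adjusted p = 4.82e-11). The *Dab2* response was smaller on soft substrates with LIF (-0.70, adjusted p = 0.00014). The change from 24 h to 48 h differed between substrates for *Dab2* (0.65, adjusted p = 0.00967) and *Lrp2* (0.42, adjusted p = 0.00673), and pool and condition cannot be told apart there. On stiff substrates the PD03 response of *Lrp2* was larger with LIF than without it (0.50, adjusted p = 8.53e-05).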

How the results depend on the processing

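No calls changed direction under the alternatives. With a pool term, the calls between soft and stiff substrates went from 7 to between 4 and 7, those against plastic from 10 to between 2 and 5, those with time from 5 to between 1 and 3, those for LIF from 1 to between 1 and 2, those for PD03 from 24 to between 22 and 24, and the interactions from 6 to between 4 and 6. The LIF count was 2 with no filter on low counts, in fits of only the groups compared and with DESeq2. Leaving out each library in turn gave 6 to 8 calls between substrates, 22 to 25 for PD03, 1 to 2 for LIF, 6 to 12 against plastic, 4 to 6 with time and 5 to 7 interactions. Of 63 called pairs of gene and comparison, all 63 were called by DESeq2 and with its size factors. With no filter 61 were, the exceptions being *Amn* (adjusted p = 0.0649) and *Pdgfra* (adjusted p = 0.0791) with PD03 on stiff substrates. Other scalings moved the median of all genes by at most 0.0253. Ranked per library instead of per kilobase, *Gata6* moved from rank 5 to 3, and *Lrp2* and *Dab2* held ranks 1 and 2. By Spearman instead of Pearson correlation, *Peg3* was again closest to *Lrp2*, and for *Dab2* *Diaph3* (0.991) took first place. No paired analysis was possible because the columns of the count table carry no replicate numbers. Depth limits *Amn*, *Sox17* and *Foxa2* most.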
